A study of Mus musculus with 22 samples.

Results

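Troponin and sarcomeric actin transcripts were examined in ischemic mouse muscle in which miR-210, a microRNA induced by low oxygen, was blocked. The genes were the troponin T isoforms Tnnt1, Tnnt2 and Tnnt3, the troponin I isoforms Tnni1 and Tnni2, the troponin C isoforms Tnnc1 and Tnnc2, and the sarcomeric actins Acta1 and Actc1. They were taken by name: every probe that the platform annotation assigns to 1 of these 9 symbols was used, whatever its values. Of the 9 genes, 8 were measured, by 9 of the 38563 probes of the table, whose probes with a single symbol name 18524 genes. Actc1 was read by 2 probes and each of the other measured genes by 1. No probe of the annotation used here carries the symbol Tnnt2, the cardiac and embryonic troponin T, so it was not analysed here and the developmental isoforms are represented by Actc1 alone.

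All 22 animals were male C57BL/6N mice aged 8 to 12 weeks, named non-diabetic in their labels, whose femoral artery had been removed to make the hindlimb ischemic. On day 5 they received 12 mg/kg of an LNA oligonucleotide into the peritoneum, either ANTI-210, directed against miR-210 (n = 11), or a scrambled sequence, SCR (n = 11). The gastrocnemius, a calf muscle of mostly fast fibres, was taken on day 7, and 200 ng of its total RNA was hybridized to 1 Illumina MouseWG-6 v2 array per mouse. Both arms were ischemic and injected, and no uninjured muscle was among the samples, so every difference below is ANTI-210 minus SCR within injured muscle.

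Contraction is switched on at the thin filament, a double strand of actin that carries tropomyosin and the troponin complex. Troponin C binds calcium, troponin I holds the filament off, and troponin T ties the complex to tropomyosin. Each subunit is encoded by separate genes for fast and for slow fibres. Tnnt3, Tnni2 and Tnnc2 are the fast forms, and Tnnt1, Tnni1 and Tnnc1 the slow forms, of which Tnnc1 is also the troponin C of the heart. Acta1 is the main actin of adult skeletal muscle. Actc1, the actin of the heart, is also made in embryonic and regenerating skeletal muscle, and slow troponin I is likewise the form of much of the developing muscle.

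The sequences just upstream of the transcription start are shown for the 3 measured genes whose promoters hold a CArG box, the site of serum response factor, or an M-CAT element, the site of TEAD factors. They come from RefSeq (GRCm38.p6), run 5′ to 3′ on the strand of the gene over the 120 bases before the start, and are shown because the 2 actins differed in their relation to slow myosin over the mice, as described after the values. Capitals mark the CArG box and, in Acta1 and Tnnc1, the M-CAT letters CATTCC on either strand.
Actc1: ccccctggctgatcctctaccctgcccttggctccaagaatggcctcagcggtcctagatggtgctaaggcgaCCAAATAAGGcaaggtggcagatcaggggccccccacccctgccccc
Acta1: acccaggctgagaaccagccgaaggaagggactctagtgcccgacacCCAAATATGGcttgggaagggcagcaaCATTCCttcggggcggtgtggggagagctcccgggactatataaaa
Tnnc1: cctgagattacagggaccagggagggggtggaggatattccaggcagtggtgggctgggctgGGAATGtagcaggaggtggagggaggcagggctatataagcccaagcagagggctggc
These are chr2:114052876-114052995 (minus strand) for Actc1, chr8:123894776-123894895 (minus strand) for Acta1 and chr14:31208192-31208311 (plus strand) for Tnnc1. Promoter windows of 250 bases before to 50 after a start were held for 7 of the 9 genes at 9 starts, without Tnnt3 and Tnni2. The CArG box begins at position -47 from the start in Actc1 and at -73 in Acta1, and 1.63% of all 32851 promoter windows hold one. CATTCC begins at -46 in Acta1, at -27 at 1 of the starts of Tnnt2, and on the opposite strand at -58 in Tnnc1, against 14.7% of all windows. An E-box (CANNTG), the site of MyoD-type factors, was in the windows of all 7 genes and in 72.3% of all windows, and a MEF2 site, present in 3.19% of windows, was in none of theirs. A match says only that these letters are present, and any part of these sites in the relations to myosin was not tested.

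The arrays were measured in muscle: averaged over the 8 markers of mature skeletal muscle, the mean level per mouse was 13.07 to 14.01 on the log2 scale in SCR and 13.15 to 14.00 in ANTI-210. Of the 7 heart markers, 5 (Tnni3, Nppa, Nppb, Myl7 and Ryr2) had means under 6, taken as the floor of the arrays, and only Myh6 and Myl4, both also made in skeletal muscle, were above it. Replicate numbers 1 to 3 and 4 to 11 were found to stand apart in an earlier analysis of these data, the labels name no batch for them, and values are therefore also given within each set. Whole-muscle RNA was measured, so fewer fibres of a type and less RNA per fibre cannot be told apart.

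None of the troponin or actin genes passed the test between ANTI-210 and SCR. With limma over all probes, 0 of the 9 passed the threshold of the study's methods, an unadjusted p under 0.05, and the smallest p was 0.140 for Tnnt3. Of all probes 3.41% passed (567 higher and 749 lower in ANTI-210, or 427 and 971 after median centring of the arrays), 2 of them after Benjamini-Hochberg adjustment. With 1 probe per gene 3.47% of genes passed and 0 of the 8 measured genes did. The adjusted p was 1 for each of the 9 probes. The intervals were narrowest for the fast isoforms and Acta1, whose probes are near the highest value of the arrays, where a narrow interval need not bound the difference in RNA, and widest for Actc1.

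The signals of the fast isoforms, read near the highest value of the arrays, spread little from mouse to mouse. Tnnt3, fast troponin T, ran from 14.58 through a median of 14.79 to 14.97 in SCR and from 14.56 through 14.73 to 14.86 in ANTI-210, on the log2 scale. The groups overlapped over most of their range, with 9 of the 11 ANTI-210 mice inside the SCR range and 3 above the SCR median. The difference was -0.07 (SE 0.045, 95% interval -0.16 to 0.02). Leaving out SCR mouse 3 brought it to -0.09 and an unadjusted p of 0.0462, the 1 left-out mouse by which any of these genes crossed the threshold.

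Tnni2, the fast inhibitory subunit, ran from 14.67 through 14.88 to 14.90 in SCR and from 14.63 through 14.86 to 14.95 in ANTI-210. The 2 lowest values were ANTI-210 mice 10 and 11, and the groups overlapped (difference -0.0045, SE 0.042, interval -0.09 to 0.08, unadjusted p = 0.915 in limma). Tnnc2, the fast calcium sensor, ran from 15.16 through 15.36 to 15.40 in SCR and from 15.23 through 15.40 to 15.40 in ANTI-210. The value 15.40 is the highest the table holds, and Tnnc2 stood at it on 9 of the 22 arrays, so a further increase could not have been read on those arrays. Its difference was 0.03 (SE 0.030, interval -0.03 to 0.09, unadjusted p = 0.326 in limma).

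Acta1, the adult skeletal actin, had a similar spread, from 14.99 through 15.09 to 15.18 in SCR and from 14.87 through 15.11 to 15.16 in ANTI-210. ANTI-210 mice 3 and 11 were the lowest, at 14.89 and 14.87, and the other mice overlapped. The difference was -0.01 (SE 0.037, interval -0.09 to 0.07, unadjusted p = 0.754 in limma). Over all 22 mice the SD of Tnnc2, Acta1, Tnni2 and Tnnt3 was 0.07, 0.08, 0.10 and 0.11 on the log2 scale. Among the 8828 genes with a mean of at least 6, whose median SD was 0.28, these SDs lay at percentiles 0.1, 0.6, 1.6 and 3.7. The means of these 4 probes lie 0.05 to 0.65 log2 units below the highest value of the arrays. Among all probes of an array Tnnc2 ranked 1 to 10 and Acta1 10 to 48. The authors' quantile normalization gives probes of the same rank the same value on every array. The parts of saturation and of this normalization in the small spread of these probes were not tested.

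**Figure D1:**
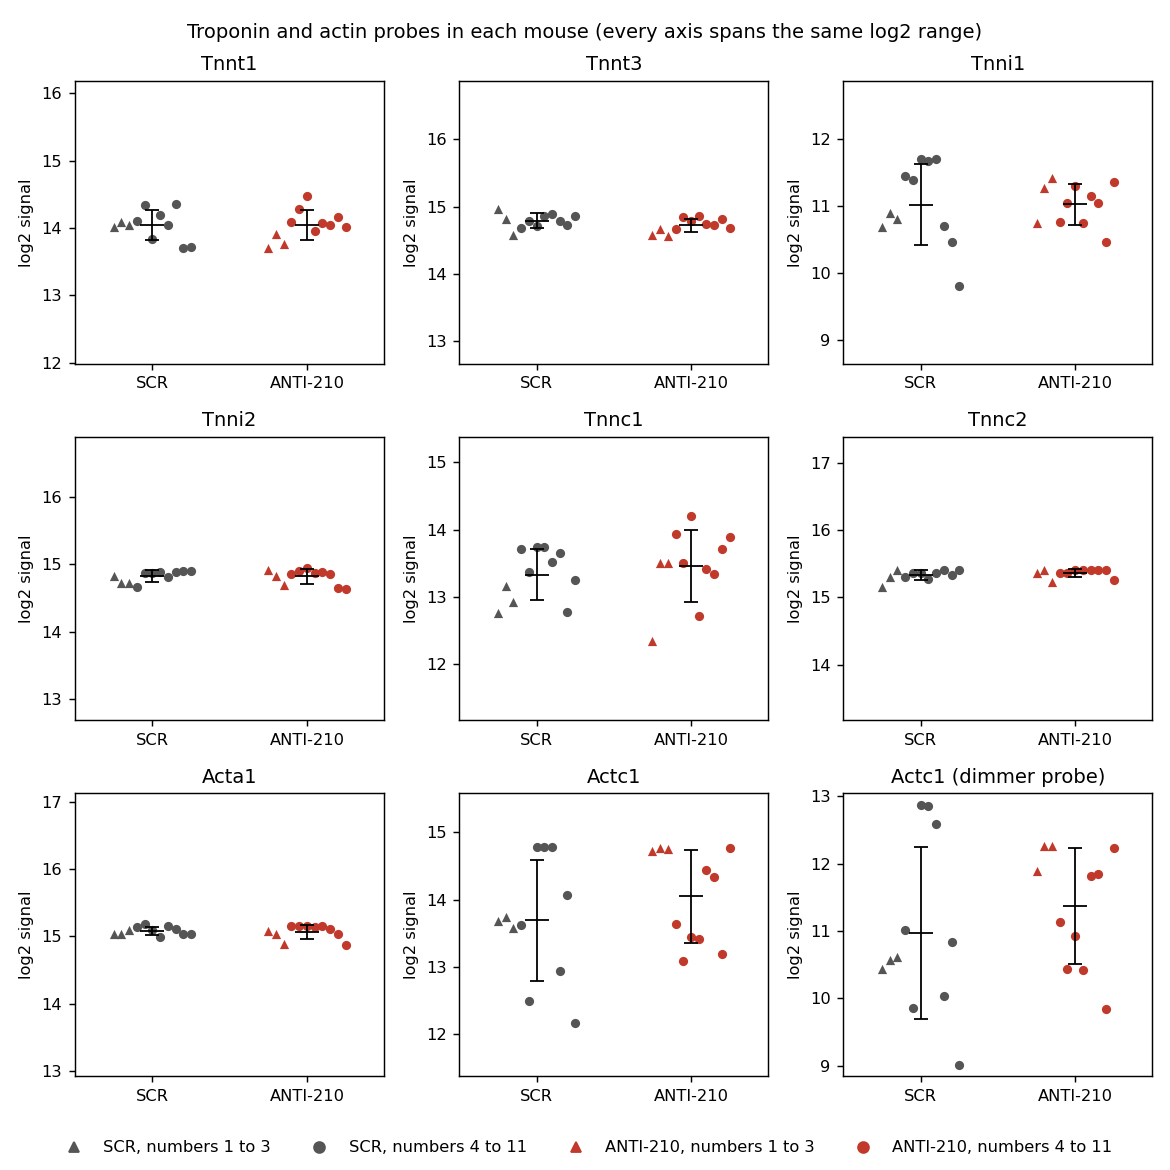
Log2 signal of each of the 9 probes in each mouse, SCR in grey and ANTI-210 in red, with triangles for replicate numbers 1 to 3 and circles for 4 to 11; horizontal bars are means, error bars are SDs (n = 11), and every vertical axis spans the same number of log2 units. The fast troponins and Acta1 lie within 0.41 log2 units over all mice, while the brighter Actc1 probe covers 2.62 and the dimmer one 3.87.

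The signals of the slow troponins had wider spreads. Tnnt1, slow troponin T, ran from 13.71 through 14.05 to 14.36 in SCR and from 13.70 through 14.05 to 14.47 in ANTI-210. The medians were the same and the groups overlapped throughout (difference -0.0009, SE 0.091, interval -0.19 to 0.19, unadjusted p = 0.992 in limma). The lowest mice were ANTI-210 mouse 1 and SCR mice 10 and 11, and the highest ANTI-210 mouse 6.

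Tnni1, slow troponin I, ran from 9.81 through 10.89 to 11.70 in SCR and from 10.47 through 11.05 to 11.42 in ANTI-210. All 11 ANTI-210 mice lay inside the SCR range, in which SCR mice 6, 7 and 8 were at 11.66 to 11.70 and SCR mouse 11 lowest. The difference was 0.0045 (SE 0.199, interval -0.41 to 0.42, unadjusted p = 0.982 in limma). Tnnc1, the troponin C of slow and cardiac fibres, ran from 12.77 through 13.37 to 13.75 in SCR and from 12.35 through 13.51 to 14.20 in ANTI-210. Both the lowest mouse (ANTI-210 mouse 1) and the highest (ANTI-210 mouse 6) were treated, and the groups overlapped (difference 0.13, SE 0.190, interval -0.27 to 0.53, unadjusted p = 0.502 in limma). The SDs over all mice were 0.21 for Tnnt1, 0.47 for Tnni1 and 0.46 for Tnnc1, at percentiles 33.5, 79.1 and 77.6.

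Actc1, the developmental and cardiac actin, was the most variable of these genes. On its brighter probe it ran from 12.17 through 13.68 to 14.79 in SCR and from 13.09 through 14.34 to 14.77 in ANTI-210, and on the dimmer probe from 9.01 through 10.61 to 12.88 and from 9.84 through 11.82 to 12.26. SCR mice 6, 7 and 8 and ANTI-210 mice 1, 2, 3 and 11 were all at 14.72 to 14.79 on the brighter probe, SCR mouse 11 was lowest at 12.17, and all 11 ANTI-210 values lay inside the SCR range on both probes. The difference was 0.36 (SE 0.33, interval -0.33 to 1.04, unadjusted p = 0.293 in limma) on the brighter probe and 0.40 (SE 0.45, interval -0.53 to 1.33, p = 0.385 in limma) on the dimmer one. The 2 probes followed each other over the 22 mice (r = 0.95, rho = 0.94). The SD of the brighter probe was 0.80, at percentile 95.6 of the genes above the floor. The highest mouse had 6.15 times the signal of the lowest on it, and 14.62 times on the dimmer probe. The interval, the widest of the 8 genes, reaches up to a 2.06-fold increase, and that of the dimmer probe to 2.515-fold. The mice at 14.72 to 14.79 ran from 11.89 to 12.88 on the dimmer probe, so the brighter one separated the highest mice less. Whether its signal is compressed there was not tested. Without SCR mouse 11 the difference was 0.20 on the brighter probe, and without SCR mouse 5 it was 0.24.

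Within replicate numbers 1 to 3 the arms were apart for Actc1 and Tnnt1, and within 4 to 11 they were not. Among numbers 1 to 3 the SCR mice had Actc1 at 13.58 to 13.74 and the ANTI-210 mice at 14.72 to 14.77, with no overlap (difference 1.08, exact permutation p = 0.1, the smallest that 3 against 3 mice allow). The dimmer probe gave 10.43 to 10.61 against 11.89 to 12.26 (difference 1.60, exact permutation p = 0.1). Tnnt1 lay the other way, at 14.01 to 14.09 in SCR and 13.70 to 13.91 in ANTI-210 (difference -0.26, exact permutation p = 0.1). In these 6 mice 16.2% of all probes were higher in ANTI-210 without overlap and 16.9% lower, and limma on them alone passed 29.3% of all probes, so 2 probes higher and 1 lower out of 9 is near the share over all probes.

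Among numbers 4 to 11 the groups overlapped for all 9 probes. Actc1 differed by 0.09 on its brighter probe there (8 mice against 8, exact permutation p = 0.846) and by -0.05 on the dimmer one (exact permutation p = 0.933). Tnnt1 differed by 0.10 (exact permutation p = 0.399), and the smallest exact permutation p of the 9 probes was 0.358, for Tnnc2. The difference between the sets was itself tested in limma as an interaction. It passed for 0 of the 9 probes, with unadjusted p = 0.0663 for Tnnt1, 0.0870 for Tnnt3, 0.180 and 0.109 for the Actc1 probes and at least 0.308 for the others, against 11.0% of all probes and none after adjustment. In numbers 1 to 3 the median gene of the regenerating muscle list was 1.21 higher in ANTI-210 and that of the macrophage list 0.88 higher, against -0.14 and 0.07 in numbers 4 to 11. The macrophage marker Cd163 was lower there (-1.08). The Schwann cell (1.14), smooth muscle (0.545), fibroblast (0.53), adipocyte (0.40) and endothelial (0.39) medians were also higher in numbers 1 to 3. Lower there were the thin filament and Z-disc (-0.325), slow sarcomere (-0.29) and mature muscle (-0.20) medians. The slow sarcomere genes ran from -1.95 for the slow myosin Myh7 to 0.79 for Sln in numbers 1 to 3. The part of these genes in the Actc1 values was not tested.

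**Figure D2:**
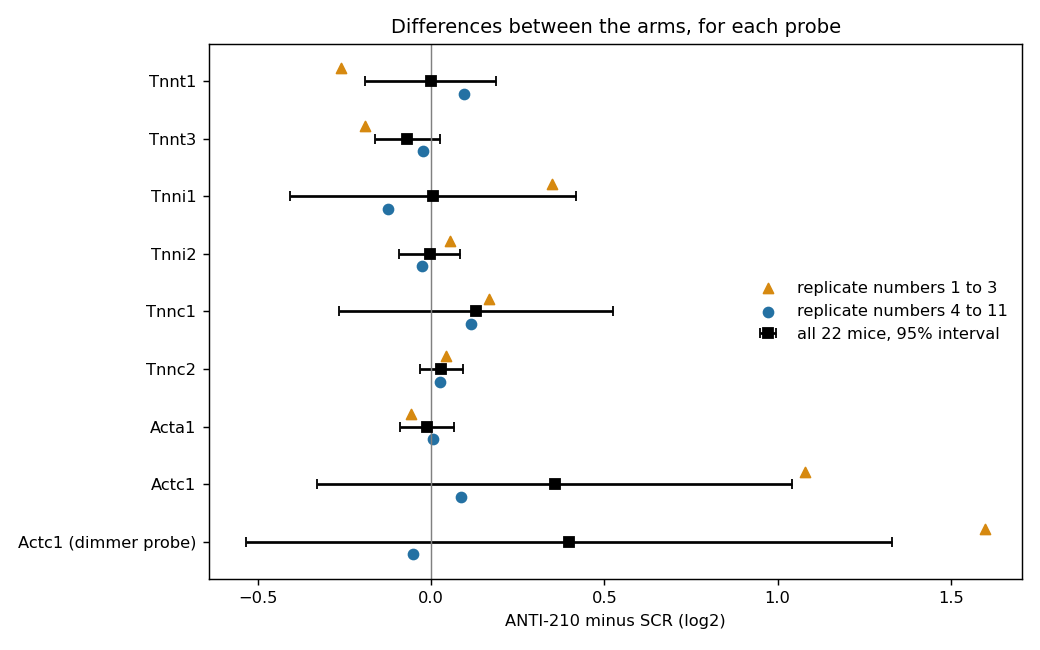
Log2 difference of ANTI-210 from SCR for each probe: black squares with 95% intervals are all 22 mice (limma), orange triangles replicate numbers 1 to 3 (3 mice against 3) and blue circles numbers 4 to 11 (8 against 8). All 9 intervals include 0; the Actc1 triangles stand at 1.08 and 1.60 while the circles are at 0.09 and -0.05.

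The balance between paired isoforms was followed as the slow or developmental form minus the adult fast form in each mouse, on the log2 scale. Only changes in a balance can be read, since the levels of different probes are not comparable. The troponin T balance, Tnnt1 minus Tnnt3, was 0.07 higher in ANTI-210 (SD 0.24 in SCR and 0.16 in ANTI-210, n = 11 each). The troponin I balance, Tnni1 minus Tnni2, differed by 0.01 (SD 0.63 and 0.33), and the troponin C balance, Tnnc1 minus Tnnc2, by 0.10 (SD 0.37 and 0.54). The actin balance, Actc1 minus Acta1, differed by 0.37 (SD 0.91 and 0.76), as 1.14 in numbers 1 to 3 and 0.08 in numbers 4 to 11. All 4 differences were smaller than the SD between mice of either group. The balances ranged over 0.83, 1.96, 1.81 and 2.77 log2 units among the mice, SCR mouse 11 being the lowest in the troponin T, troponin I and actin balances and ANTI-210 mouse 1 in the troponin C balance.

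**Figure D3:**
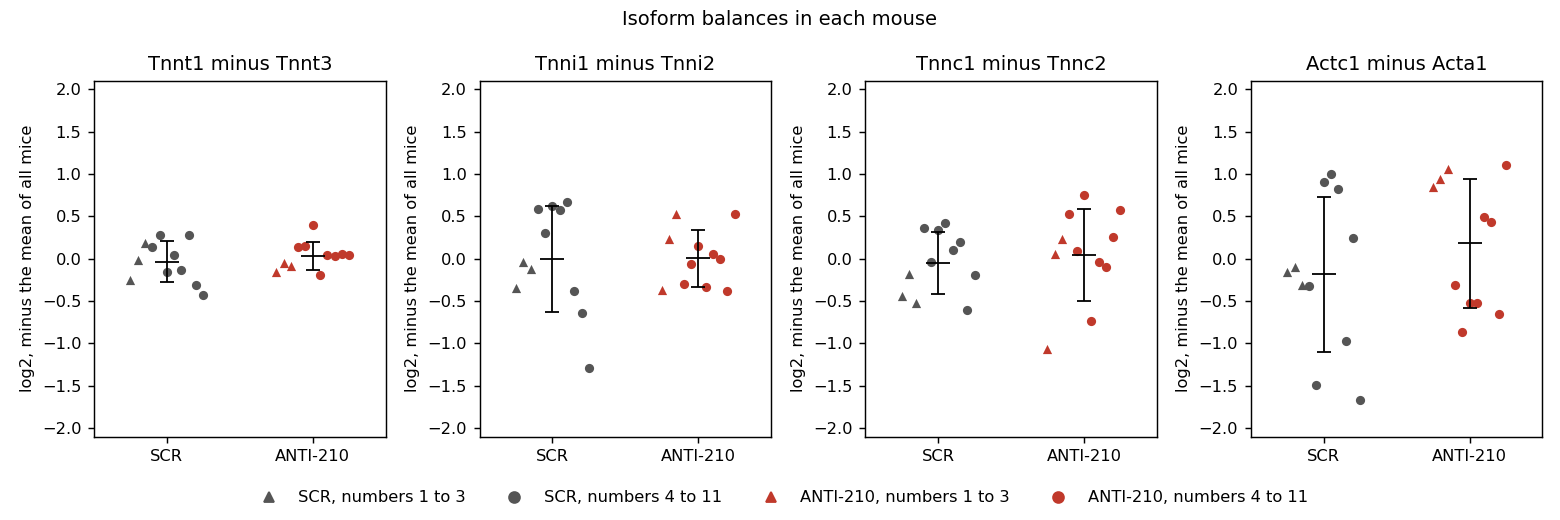
Slow or developmental isoform minus adult fast isoform in each mouse, on the log2 scale and centred on the mean of all 22 mice, for troponin T, I, C and actin; symbols as in the plot of probes by mouse, bars are means and error bars SDs (n = 11). The arms overlap in all 4 panels, and the spread widens from the troponin T balance (0.83) to the actin balance (2.77).

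None of the 3 pairs of slow troponins passed the test of a relation across the mice. Over the 22 mice Tnnt1 and Tnnc1 had r = 0.54 (rho = 0.48, permutation p = 0.00862, adjusted p = 0.0805), which fell to 0.31 without the 2 mice farthest from the median of Tnnt1. In every such value the median is that of the first gene of the pair, and in pairs with a myosin that of the troponin or actin. Tnni1 and Tnnc1 had r = 0.46 (rho = 0.54, permutation p = 0.0296, adjusted p = 0.143), and Tnnt1 and Tnni1 r = 0.28 (rho = 0.20, permutation p = 0.210, adjusted p = 0.442). Of all 28 pairs of the 8 genes, 0 passed after adjustment over the 28, and 6 had an unadjusted permutation p under 0.05.

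Slow troponin I and Actc1 had r = 0.60 (rho = 0.57, permutation p = 0.00324, adjusted p = 0.0805), with r = 0.66 in SCR, 0.53 in ANTI-210 and 0.64 in numbers 4 to 11. Without the 2 farthest mice it was 0.39. Acta1 and Tnnc2, both near the top of the table, had r = 0.57 (rho = 0.40, permutation p = 0.00659, adjusted p = 0.0805). The 2 sarcomeric actins had r = -0.40 (rho = -0.42, permutation p = 0.0608, adjusted p = 0.243).

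**Figure D4:**
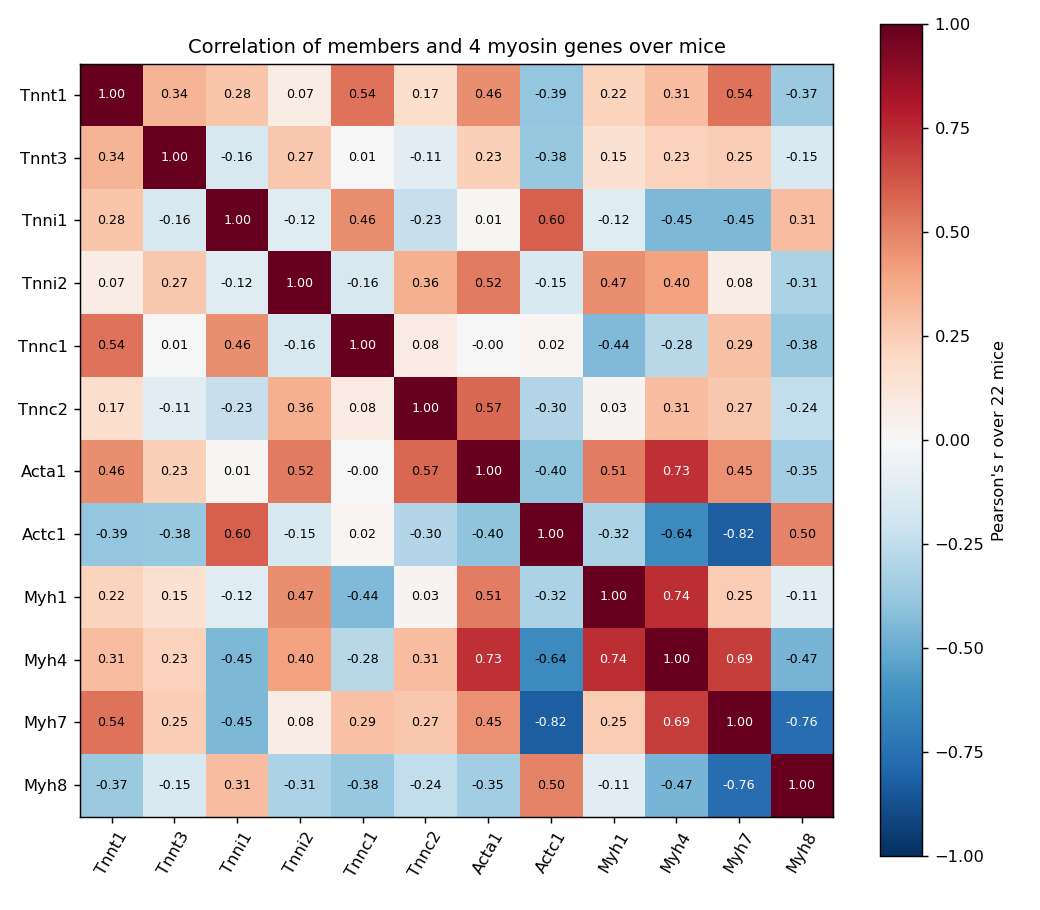
Pearson correlations over the 22 mice between the 8 measured troponin and actin genes and the myosin genes Myh1, Myh4, Myh7 and Myh8, from -1 (blue) to 1 (red). Actc1 is lowest with Myh7 (-0.82), and the slow troponins Tnnt1 (0.54) and Tnni1 (-0.45) lie on opposite sides in the Myh7 column.

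Myosin heavy chains mark the fibre types: Myh4 and Myh1 the fast fibres, Myh7 the slow ones and Myh8 newborn and regenerating fibres (Myh2 and Myh3 have no probe in the annotation used). None of the 4 passed the test between the arms (Myh7 by -0.17, SE 0.70; Myh8 by -0.18, SE 0.24; unadjusted p of 0.459 or more in limma for all 4). Within numbers 1 to 3 and 4 to 11 Myh7 differed by -1.95 and 0.50, Myh8 by 0.34 and -0.38, Myh4 by -0.27 and 0.05, and Myh1 by -0.02 in both. Over the mice, 3 of the 32 pairs of a measured gene and a myosin passed after adjustment by Pearson's r and 6 by Spearman's rho. Actc1 fell as Myh7 rose (r = -0.82, rho = -0.82, permutation p = 1e-05, the smallest that the resamples can give, adjusted p = 0.00032). The relation held in SCR (-0.89), in ANTI-210 (-0.82) and in numbers 4 to 11 (-0.80), and it was -0.86 without the 2 farthest mice. Such values are not particular to the myosins: 17.7% of the genes above the floor reached 0.8 in size with Actc1, and 66.8% reached 0.5. The SCR mice 6, 7 and 8 and ANTI-210 mice 1, 2, 3 and 11, highest in Actc1, had Myh7 at 4.82 to 6.20, at or near the floor, and the mice with the highest Myh7, ANTI-210 mice 4 and 6 at 9.70 and 9.62, had Actc1 at 13.64 and 13.44.

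Actc1 also fell with the fast myosin Myh4 (r = -0.64, rho = -0.68, permutation p = 0.00127, adjusted p = 0.0135), with -0.75 in SCR, -0.56 in ANTI-210, -0.67 in numbers 4 to 11 and -0.66 without the 2 farthest mice. With Myh8 its r was 0.50 (permutation p = 0.0139, adjusted p = 0.0784) and its rho 0.78 (adjusted p = 0.0008), with r = 0.78 in SCR, 0.58 in ANTI-210 and 0.52 without the 2 mice farthest in Actc1. The mice lowest in Myh8, ANTI-210 mice 4 (13.64) and 6 (13.04), were kept in that value. Acta1 rose with Myh4 (r = 0.73, rho = 0.64, permutation p = 0.00033, adjusted p = 0.00528), but r was 0.27 in SCR, 0.95 in ANTI-210, 0.78 in numbers 4 to 11 and 0.46 without the 2 farthest mice. After cyclic loess normalization of the arrays the correlation of Acta1 and Myh4 was -0.16 (adjusted p = 0.602), so its direction depends on the normalization.

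The slow troponins T and I differed in their relation to slow myosin. Tnnt1 had r = 0.54 with Myh7 (rho = 0.57, permutation p = 0.00908, adjusted p = 0.0726 for r and 0.0347 for rho) and Tnni1 r = -0.45 (rho = -0.43, permutation p = 0.0369, adjusted p = 0.119). Without the 2 farthest mice they were 0.39 and -0.32, in SCR 0.25 and -0.57, in ANTI-210 0.78 and -0.36, and in numbers 4 to 11 0.43 and -0.48. After cyclic loess normalization they were 0.36 and -0.47 (adjusted permutation p = 0.235 and 0.121). After median centring they were 0.57 and -0.43 (adjusted permutation p = 0.0481 and 0.123). Among the genes above the floor, 5.36% reached a correlation of 0.5 in size with Tnnt1 and 51.8% with Tnni1. The difference between the 2 relations was tested directly, by correlating the standardized Tnnt1 minus the standardized Tnni1 level with Myh7, and it passed (r = 0.82, permutation p = 1e-05, adjusted p = 0.00056 over all 112 combinations of a pair of genes and a myosin, of which 28 passed). Tnnc1, with r = 0.29 to Myh7, differed from Tnni1 in the same way (r of the difference -0.71, adjusted permutation p = 0.0024). Actc1 differed from Tnnt1 (0.82, adjusted permutation p = 0.00056), Tnnc1 (0.80, adjusted permutation p = 0.00112) and Acta1 (0.76, adjusted permutation p = 0.00056) in its relation to Myh7. It also differed from the fast Tnnt3 (0.65), Tnni2 (0.59) and Tnnc2 (0.68; adjusted permutation p = 0.00917, 0.0206 and 0.00529), but did not pass against Tnni1 (0.42, adjusted permutation p = 0.131). Tnni1 differed from Acta1 (-0.64, adjusted permutation p = 0.00688). With Myh7, 9 of the 28 pairs passed. The tests of differences between relations were run on the deposited values only, so their dependence on the normalization was not tested.

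**Figure D5:**
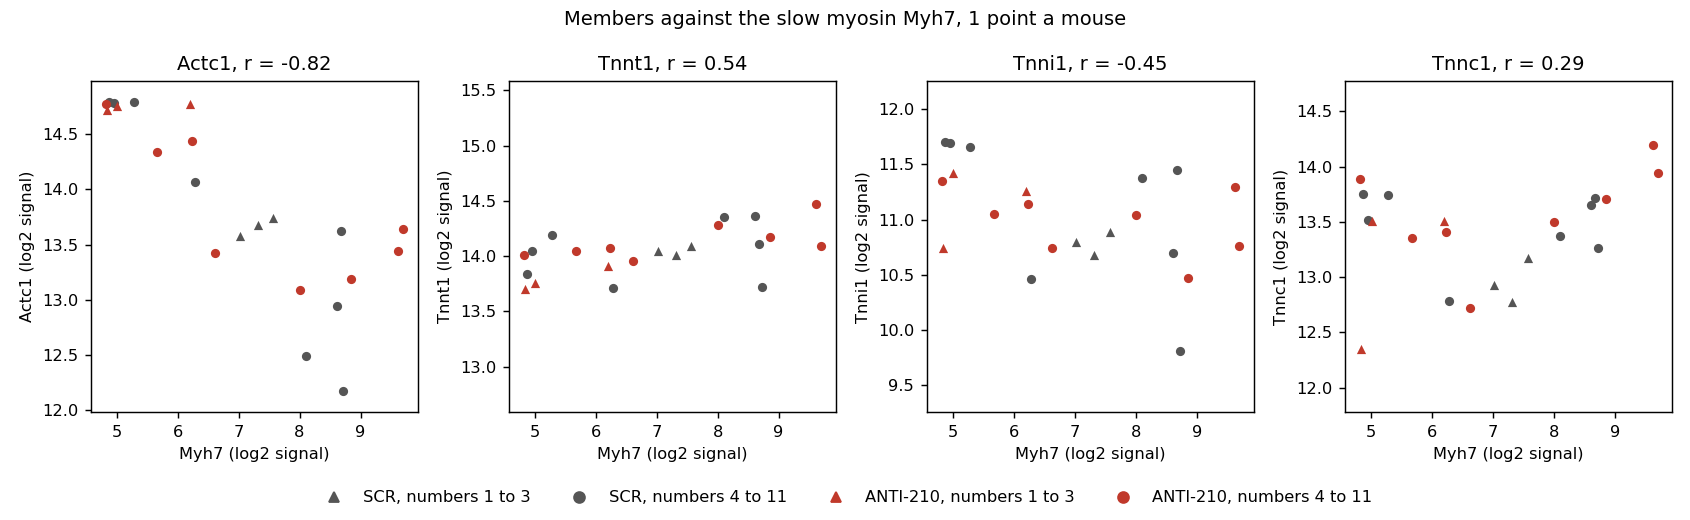
Log2 signal of Actc1, Tnnt1, Tnni1 and Tnnc1 against that of the slow myosin Myh7, 1 point per mouse, SCR in grey and ANTI-210 in red, triangles for replicate numbers 1 to 3; the vertical axes span the same number of log2 units. Actc1 falls as Myh7 rises (r = -0.82), the points of Tnni1 (-0.45) and Tnnt1 (0.54) scatter more widely, and both arms are spread along the Myh7 axis.

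Relations to the other slow genes are given as a description, with no test. Tnnt1 had its highest correlation of all 8820 genes above the floor with Atp2a2, the calcium pump of slow fibres (r = 0.85, 0.81 in SCR and 0.90 in ANTI-210), followed by Socs6 (0.77), Cul9 (0.76), Rpl22l1 (0.73) and Thbd (0.72). Over the 11 measured genes of the slow sarcomere list the median r was 0.41 for Tnnt1, -0.11 for Tnnc1, -0.41 for Tnni1 and -0.54 for Actc1. Of these 11 genes 10 had a positive r with Tnnt1, 5 with Tnnc1, 4 with Tnni1 and 2 with Actc1. Sln, the pump inhibitor sarcolipin, was the 1 with a negative r to Tnnt1 (-0.29), and it had r = 0.61 with Tnni1 and 0.87 with Actc1. Tnnt3 was most like Ppp2r5d (0.79), Ino80b (0.75), Islr2 (0.73), Tnk2 (0.72) and Josd2 (0.72), none of them a sarcomere gene. These are the highest of 8820 correlations, which ran from -0.77 to 0.79, and Tnnt3 spread over only 0.41 log2 units near the highest value of the arrays.

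Most markers of regenerating muscle, macrophages and fibroblasts had positive correlations with Actc1 and Tnni1, again as a description with no test. The median r over the 8 regenerating muscle markers was 0.87 for Actc1 and 0.63 for Tnni1, over the 5 macrophage markers 0.88 and 0.66, and over the 5 fibroblast markers 0.85 and 0.59. All 8 regenerating muscle markers were positive with both genes, but 1 macrophage marker, Cd163, had r = -0.76 with Actc1, the lowest r of Tnni1 was -0.44 with a macrophage marker and -0.05 with a fibroblast marker, and 4 of 5 were positive in each of these cases. Over the 6 smooth muscle markers the medians were 0.41 for Actc1 and 0.52 for Tnni1, from -0.52 to 0.85 and from -0.35 to 0.65. For Tnnt1 the medians of the regenerating muscle, macrophage and fibroblast lists were -0.28, -0.15 and -0.33. The mean level of the macrophage list ran from 7.85 to 9.88 in the SCR mice and from 8.44 to 9.56 in the ANTI-210 mice, and that of the regenerating muscle list from 8.69 to 11.50 and from 8.98 to 11.48. Of the genes above the floor 17.7% had a correlation of at least 0.8 in size with Actc1, against 0.884% with Tnni1 and 0.0113% with Tnnt1. At a size of at least 0.5 the shares were 66.8%, 51.8% and 5.36%, so correlations of at least 0.5 in size are common for Actc1 and Tnni1. The share at the size of the Actc1 medians was not counted. The first principal component of the arrays, which held 63.6% of their variance, had r = -0.85 with Actc1 and -0.66 with Tnni1 (its sign is arbitrary). The part that the share of regenerating tissue or of invading cells had in these levels was not tested.

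Among the other genes of the contractile apparatus few passed the test between the arms. Of the 12 fast sarcomere genes 0 passed in either direction (differences from -0.11 to 0.24, median -0.0055), and of the 8 developmental ones 0 (-0.21 to 0.45, median -0.09). Of the 11 slow genes 1 was lower in ANTI-210, Myom3, an M-band protein (-0.20, SE 0.089, unadjusted p = 0.0315 in limma), with a list median of -0.07. Of the 28 thin filament and Z-disc genes 1 was lower, Flnc, the muscle filamin (-0.21, SE 0.089, p = 0.0264 in limma), with a median of -0.05. Of the 20 muscle transcription factors 1 was lower, Mef2c (-0.15, SE 0.066, p = 0.0324 in limma), with a median of -0.04. These counts stand beside the 3.47% of all genes that passed, whose median difference was -0.0036, and each of the 3 genes had an adjusted p of 1. Of the 5 other actins 0 passed, Acta2 being 0.48 higher (SE 0.39, p = 0.232 in limma) and the cytoplasmic Actb differing by -0.02 in a range of 14.41 to 14.73. Of the cell type lists only the endothelial one had members past the threshold, 3 of 4 (Emcn 0.21, Cdh5 0.25 and Tek 0.19 higher, unadjusted p = 0.00526, 0.00956 and 0.0487 in limma), and its median r with Actc1 was -0.03. Within numbers 1 to 3 and 4 to 11 Emcn was 0.50 and 0.10 higher, Cdh5 0.55 and 0.14, and Tek 0.09 and 0.22. Of the 4 endothelial genes 2 passed the interaction test at an unadjusted p under 0.05 in limma, against 2261 of all 18524 genes. The fibroblast list (5 genes) and the muscle transcription factor list (20 genes) also had 2 each past it, and no probe passed it after adjustment.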

How the data were processed

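RNA of the ischemic gastrocnemius of 22 mice (1 array each) was analysed. Bead summaries from GenomeStudio were quantile normalized by the authors and filtered with beadarray (versions not given in the sources used here), who deposited 1 log2 value per probe and array, from 4.35 to 15.4 on a scale taken as log2 because its base is not stated. Gene names come from the platform annotation: 32093 probes have 1 symbol, 16 several and 6454 none. No further columns were left unused.

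The listed genes, gene lists, tests and alternatives were chosen with earlier results of these data known. Differences are ANTI-210 minus SCR from limma 3.58.1 (lmFit and eBayes, R 4.3.3) over all probes, two-sided, with Benjamini-Hochberg adjustment, and groups and replicate numbers follow the labels. The probe with the highest mean stood for a gene. Named were all listed genes, the 5 genes most correlated with Tnnt3 and with Tnnt1 among those with a mean of at least 6, up to 4 members of each list past an unadjusted p under 0.05, and the myosins. Tnnt2 was in that rule but had no probe. The other genes named beside Actc1 and Tnni1, and the tests of differences between 2 correlations, were chosen after their values were seen. Permutation tests used all arrangements within sets of replicate numbers and 100000 resamples for correlations (two-sided, numpy 2.4.6 and scipy 1.17.1). All mice are separate animals by the labels. The number of arrays limits the precision: the median SE over all probes was 0.067. Alternatives were other normalizations, array weights, eBayes with trend and robust, brighter probes only, covariates, the replicate block, the methods' t-test, leaving out each mouse, and each set of replicate numbers alone. Detection p-values were not used.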

Additional observations from a re-analysis of the deposited data

How the results depend on the processing

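The differences of the 8 genes were computed under 280 combinations of gene and alternative. Actc1, read by its brighter probe or by the mean of its probes, and Tnnt3, Tnnc1 and Tnnc2 kept their direction in all of theirs. In 43 the sign turned (Tnni1 14, Tnni2 13, Tnnt1 13 and Acta1 3), in none of which the gene passed the threshold. The dimmer Actc1 probe was not among these combinations, and its difference was -0.05 in numbers 4 to 11. The count of listed probes past the threshold was 0 except in numbers 1 to 3 alone (3 probes, 2 genes) and without SCR mouse 3 (1, Tnnt3), a range of 0 to 1 with 1 mouse left out for probes and for genes alike. Actc1 (0.36) was 0.62 under array weights (unadjusted p = 0.0508), 0.20 when the first principal component was a covariate and 0.20 to 0.47 with 1 mouse left out, lowest without SCR mouse 11. Tnnc1 (0.13) ranged from 0.06 without ANTI-210 mouse 6 to 0.24 without ANTI-210 mouse 1, and its balance with Tnnc2 (0.10) from 0.03 to 0.21 without the same mice. The isoform balances moved by less than the SD pooled over both groups in each alternative, the actin balance most, from 0.37 to 1.14 in numbers 1 to 3 alone, which is more than the ANTI-210 SD of 0.76. Probes past the threshold numbered 3628 with array weights, 2298 with the component as a covariate, 492 among the brighter probes (fewer probes were tested), 11283 in numbers 1 to 3 alone and 981 in numbers 4 to 11 alone, and 1110 to 1792 with 1 mouse left out. Of the other listed genes 6 passed, against 13 under array weights, 17 with that covariate, 59 in numbers 1 to 3 alone, 2 in numbers 4 to 11 alone and 4 to 10 with 1 mouse left out (10 without SCR mouse 11). These counts move with those of all probes just given. In the main fit 3.47% of all genes passed, and in numbers 1 to 3 alone 29.3% of all 38563 probes did. The cause of these changes was not tested.

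Of the pairs among the 8 genes 0 passed after adjustment, but 3 did with cyclic loess and 1 with the mean of all probes, in each case including Tnni1 and Actc1, and with myosins 3 passed, but 5 with either. These alternatives were chosen after seeing the data. Actc1 with Myh7 passed in all 4, and the correlation of Acta1 with Myh4 turned to -0.16 with cyclic loess. The replicate numbers do not pair the mice (correlations of same-numbered deviations from -0.664 to 0.641, 4 of 11 over 0.1, 1 of 11 SCR mice nearest to its own number): with the replicate block 1305 probes passed against 1316, of the listed probes 0, and no difference of the 8 genes changed its call. Probes near the top of the range, such as Tnnc2, cannot show a rise.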
